A study of Mus musculus with 36 samples.

Results

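RNA cross-linked to D1PAS1 in mouse testis was measured gene by gene, by setting 3 eCLIP precipitates against 3 size-matched inputs. In eCLIP (enhanced cross-linking and immunoprecipitation) ultraviolet light joins a protein to the RNA it touches, the protein is precipitated, and the reverse transcriptase stops near the joined base, so that each read marks a cross-link event. A size-matched input is lysate taken without the precipitation and cut to the same size range. The members are the 42477 Ensembl gene features that hold at least 1 event in the windows counted, of 42692 features in all, and they held events in 18574 to 21586 features per precipitate and 23763 to 39770 per input. The remaining 215 features are piRNA clusters and are not described here. Cross-link events were listed in windows of up to 50 nt that start every 20 nt, and only windows whose number is divisible by 3 were summed, so that no event entered a gene more than once.

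All 6 libraries came from testes with the genotype given as KI (knock-in), labelled as male germ cells and treated with ultraviolet light. The inputs carry the knock-in as well, and precipitates from testes without it were not analysed here. The labels give no age for these samples, and neither the allele nor the antibody is described in them. They do not say that the 3 samples of a group came from separate animals, so every p-value measures only the spread between these samples, which may be technical. Transcript levels came from RNA-seq of testes of wild-type (WT) and D1Pas1 knockout (KO) mice, 3 libraries of each at P14, P18 and P28, where P is the postnatal day.

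The protein D1PAS1 belongs to the DEAD-box RNA helicases and is made in male germ cells from an intronless autosomal gene that arose from the X-linked gene Ddx3x. DEAD-box helicases use ATP to open short RNA duplexes and to remodel RNA-protein complexes, and the DDX3 branch is known for work in translation initiation on messenger RNAs with structured leaders. In the testis, germ cells in the pachytene stage of meiosis silence the sex chromosomes, so autosomal copies of X-linked genes are thought to act in their place.

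The libraries differed in depth and in the way events were spread. Over all features, precipitates 1 to 3 held 144662, 138887 and 102257 events and inputs 1 to 3 held 262049, 2741420 and 3665538, so that input 1 was close to the precipitates in depth and the other inputs were far deeper. Over the genes listed, an event count stood on 1.16, 1.14 and 1.14 events per distinct position in the precipitates and on 1.51, 1.68 and 1.74 in the inputs. Germ-cell markers were present, with 8 to 10 of 10 holding events in each precipitate. Their summed level was 936 to 1987 CPM, the unit used below for events scaled to a common library size, in the precipitates and 337 to 657 in the inputs. In precipitates 1 to 3, Hspa2 held 487, 422 and 657 CPM of it, Tnp1 339, 165 and 336, and Ldhc 169, 134 and 489. The excess was not shared by all 10 markers. Prm1 held 42.4, 30.9 and 15.3 CPM against 58.1, 135 and 39.3, and Dazl and Acrv1 held at most 1 event in any precipitate. Although the samples are labelled as germ cells, markers of Sertoli, Leydig, peritubular, macrophage and endothelial cells held events in every precipitate and every input. The summed Sertoli level was 175 to 260 CPM in the precipitates and 198 to 280 in the inputs, and the Leydig level 42.4 to 76.4 against 78.2 to 134. In each precipitate, 3 or 4 of 6 Sertoli markers, 2 or 3 of 5 Leydig markers and all 3 endothelial markers held events. Their part in the differences below was not tested.

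A total of 4939 genes (11.6% of those listed) had enough events to be tested. Of these, 616 were higher in the precipitates than in the inputs, which is 12.5% of the genes tested, and 418 were lower, which is 8.46%, by edgeR's quasi-likelihood test with Benjamini-Hochberg adjusted p under 0.05. The median log2 fold change over all genes tested was 0.00, with quartiles of -0.44 and 0.42. A difference of 4-fold or more was found for 216 higher and for 158 lower genes, and 42 genes were at least 16-fold higher. The precipitates did not overlap the inputs in 611 of the 616 higher genes and in all 418 lower genes, while over all genes tested 21.4% had every precipitate above every input and 21.9% had every precipitate below. The higher genes held 14.7%, 11.5% and 15.8% of all events in the precipitates against 3.49%, 4.25% and 4.13% in the inputs. A gene that was scarce in the inputs passed the low-count filter only through the precipitates and could hardly be called lower. The number of lower genes depended on single libraries: it was 132, 139 or 158 without precipitate 1, 3 or 2, and 260 without input 2. The number of higher genes ranged from 464 to 609 over the 6 omissions, but these were not all the same genes. Of the 616, 368, 415 and 412 kept their call without precipitate 1, 2 or 3, in fits that tested 7064, 7146 and 6987 genes.

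**Figure D1:**
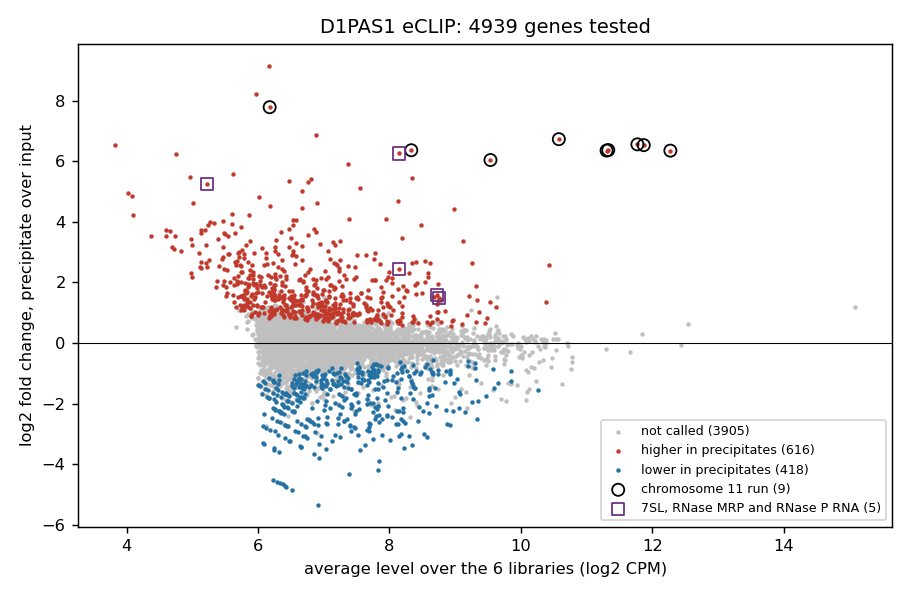
Each point is 1 of 4939 genes, with its average level over the 6 libraries (log2 CPM) on the horizontal axis and its log2 fold change of precipitate over input on the vertical axis. The 9 circled genes of a chromosome 11 interval stand between 6.04 and 7.78 at all levels, and below a level of about 6 the tested genes are nearly all higher ones, since genes that low in the inputs pass the filter only through the precipitates.

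Among the higher genes, 3 patterns are described, which overlap and do not cover all 616. In the first, events covered whole transcription units of neighbouring genes. In the second, a large part of a gene's events stood in 1 window. In the third, events lay mostly in exons and the gene remained higher without its fullest window. They were told apart by where a gene's precipitate events lay and by repeating the test after each gene's fullest window had been left out. This alternative was chosen after seeing the data. For that test, the fullest window was the one with the largest share of library events, summed over all 6 libraries. It need not be the fullest window of the precipitates or of the inputs alone.

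The first pattern was seen in a run of 9 neighbouring genes on chromosome 11 (chr11:109139291-109996274, build GRCm38.p6, which is mm10). The genes were, in order, E030025P04Rik, Gm11658, Rgs9, Gm11696, Slc16a6, Wipi1, Fam20a, 1700012B07Rik and Abca8b. The strand is minus for the 8 whose strand the files or the annotation give. Their log2 fold changes ran from 6.04 to 7.78 with a median of 6.37. Rgs9 encodes a regulator of G-protein signalling best known from photoreceptors, Slc16a6 a transporter of the monocarboxylate family, Wipi1 a phosphoinositide-binding protein of autophagy, Fam20a a pseudokinase needed for enamel, and Abca8b a lipid transporter. E030025P04Rik and Gm11696 are listed as long non-coding RNAs and Gm11658 as a pseudogene.

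The 100 bases before the transcript start that the RefSeq promoter table uses are shown for the 6 genes of the run that have an entry in it, because the genes share the enrichment and each has a start of its own. In Fam20a, 1700012B07Rik and Abca8b the annotated gene begins farther upstream than that start, so the windows of Fam20a and Abca8b lie inside the gene and that of 1700012B07Rik overlaps it. Capitals mark the letters of 4 motifs, namely the CCAAT box, the TATAAA of a TATA box, the GGGCGG of a GC box and the CACGTG of an E-box, searched on both strands. No motifs overlap in these windows. All 6 lie on the minus strand of GRCm38.p6 and are written 5′ to 3′. They lie at chr11:109144370-109144469, chr11:109298182-109298281, chr11:109611390-109611489, chr11:109722239-109722338, chr11:109828047-109828146 and chr11:109995846-109995945.
E030025P04Rik: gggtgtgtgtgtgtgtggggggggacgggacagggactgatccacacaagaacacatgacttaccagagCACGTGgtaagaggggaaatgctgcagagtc
Rgs9: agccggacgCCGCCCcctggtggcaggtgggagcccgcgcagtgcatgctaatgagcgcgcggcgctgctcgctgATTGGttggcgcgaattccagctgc
Wipi1: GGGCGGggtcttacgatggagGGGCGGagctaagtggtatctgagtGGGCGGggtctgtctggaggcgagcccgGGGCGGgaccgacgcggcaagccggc
Fam20a: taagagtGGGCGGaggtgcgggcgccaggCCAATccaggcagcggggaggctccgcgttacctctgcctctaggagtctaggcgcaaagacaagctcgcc
1700012B07Rik: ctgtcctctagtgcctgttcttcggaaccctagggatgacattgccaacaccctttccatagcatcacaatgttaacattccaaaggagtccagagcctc
Abca8b: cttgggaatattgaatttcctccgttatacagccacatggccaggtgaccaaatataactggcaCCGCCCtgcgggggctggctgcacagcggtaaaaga

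GGGCGG was found in 4 of these 6 windows, in 38.0% of the 5020 windows of the same length that belong to genes tested here and in 24.7% of all 32851 in the table. CCAAT was found in 2 of 6, against 17.7% for genes tested and 18.9% over the table, and CACGTG in 1 of 6, against 3.71% and 3.17%. TATAAA was found in 0 of 6, against 3.05% and 5.56%. The GC content ran from 49% for 1700012B07Rik to 72% for Wipi1, beside a median of 63% for genes tested and 55% over the table. None of the 4 motifs was in all 6 windows.

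Rgs9 held 12828, 4217 and 13070 CPM in precipitates 1 to 3 and 105, 153 and 106 CPM in inputs 1 to 3. Its log2 fold change was 6.35 ± 0.51 (SE, n = 3 per group, adjusted p 8.46e-05 in edgeR's test). The precipitates lay far above every input, and precipitate 2 was the lowest of the 3. Fam20a showed the same order, with 9449, 3569 and 9921 CPM against 98.7, 91.6 and 64.5 (log2 fold change 6.53 ± 0.47, edgeR adjusted p 6.65e-05). In Slc16a6 the precipitates held 4025, 1430 and 4341 CPM and the inputs 23.2, 35.3 and 28.8 (6.73 ± 0.48, edgeR adjusted p 6.23e-05). Together the 9 genes took 3.47%, 1.27% and 3.56% of the events of precipitates 1 to 3 and 0.0296%, 0.0426% and 0.0321% of those of inputs 1 to 3. The lower share of precipitate 2 was thus common to the run, and it still exceeded that of every input.

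Events were spread along these genes. Of the counted windows of Rgs9 up to the last one hit, 69.0% held an event in a precipitate (836 of 1212), and the fullest window held 21 of its 2476 events. Fam20a had 72.8% of windows hit, Slc16a6 70.9%, and the range over the 9 genes was 67.0% in Abca8b to 93.8% in the short Gm11658. Each event stood nearly alone, with 1.01 to 1.04 events per distinct position. When the genes were cut into 10 equal stretches, each stretch of Rgs9 held 6.83% to 12.8% of its events and each stretch of Slc16a6 7.85% to 12.6%. The shares were less even in the genes with fewer events, at 3.38% to 15.5% in E030025P04Rik, 4.11% to 20.8% in Gm11696 and 2.63% to 22.4% in Gm11658. Most events lay in introns, 2229 of 2476 in Rgs9 and 1734 of 1888 in Fam20a, while Slc16a6 had 246 of 803 in exons. All 9 genes remained higher when their fullest window was left out, at log2 fold changes of 5.92 to 7.36.

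No plus-strand gene tested inside the interval was higher, and none of the 4 minus-strand genes next to Abca8b was called. Per kilobase of gene, the mean level in the precipitates was 112 to 243 CPM over the 9 genes, against 1.14 to 3.65 CPM in the inputs. On the plus strand of the same interval, Arsg, which encodes a sulfatase, was lower in the precipitates (180, 72.0 and 107 CPM against 558, 324 and 272; log2 fold change -1.63 ± 0.39, edgeR adjusted p 0.0209), and Amz2 was not called (-0.55, edgeR adjusted p 0.468). Gna13, Prkar1a and the other plus-strand genes inside the interval had too few events to be tested, with at most 8 in any precipitate. Among them, the level per kilobase was above that of the inputs in 1700096J18Rik (means of 7.87 and 0.860 CPM), Gm11683 (3.11 and 0.537), Prkar1a (2.50 and 0.835) and 1700023C21Rik (1.32 and 0.0450), the last from 1 event in a precipitate. On the other side of the interval, the short feature Gm24149, whose strand is not listed, held 2, 1 and 3 events in the precipitates and 0 in every input, which is 241 CPM per kilobase in the precipitates and too few events to test. Axin2, the next gene beyond it, was tested and not called (-0.62, edgeR adjusted p 0.307). Next to Abca8b on the same strand, beyond the interval, Abca8a held 4, 6 and 0 events in the precipitates and Abca6 8, 5 and 3. Abca9 and Abca5 were tested and not called (log2 fold changes of 0.35 and -0.30, edgeR adjusted p 0.466 and 0.689). Thus members of 1 transporter gene cluster lay on either side of the boundary.

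**Figure D2:**
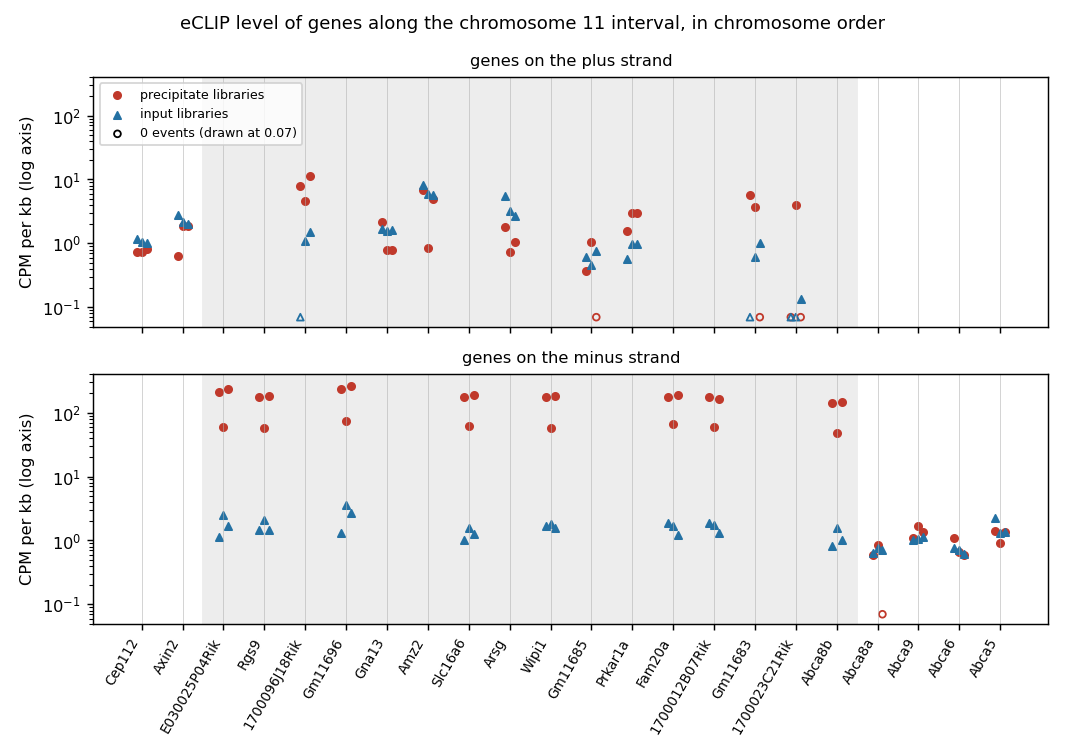
CPM per kb of gene (log axis) is shown for genes in chromosome order along the interval, with plus-strand genes above and minus-strand genes below, 3 precipitates as circles and 3 inputs as triangles, and the interval shaded. Minus-strand genes inside the shading stand near 100 CPM per kb in the precipitates against 1.14 to 2.51 on average in the inputs, and the plus-strand genes and the minus-strand genes beyond it do not.

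Chromosome 18 held several higher genes with a smaller difference near each other. Gm16090, Ttr, B4galt6 and Trappc8 were an unbroken run, and Garem1 and Klhl14 lay beyond it. Between Trappc8 and Garem1, Rnf125 was tested and not called (-1.14, edgeR adjusted p 0.181), and Rnf138 and Mep1b had too few events to test. Trappc8, which encodes a subunit of a vesicle-tethering complex, held 773, 658 and 596 CPM in the precipitates and 34.8, 70.0 and 64.5 in the inputs (log2 fold change 3.46 ± 0.25, edgeR adjusted p 6.23e-05). Garem1 held 1494, 998 and 1039 CPM against 168, 198 and 200 (2.63 ± 0.21, edgeR adjusted p 8.47e-05). Precipitate 1 was the highest in both, the other precipitates were close to each other, and none overlapped the inputs. Klhl14, B4galt6 and Ttr were higher as well, with log2 fold changes of 2.64, 2.65 and 3.72. These 5 kept their call without the fullest window, at 2.44 to 3.32. Here the genes were not on 1 strand, since Ttr is on the plus strand and the other 4 are on the minus strand. Ccdc178, farther along on the minus strand, was not called (0.21, edgeR adjusted p 0.496). Gm16090, which overlaps Ttr, had 97.8% of its precipitate events in 1 window, and its log2 fold change went from 2.57 to -2.69 (edgeR adjusted p 0.0239) when that window was left out.

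The calls of neighbouring genes were also counted over the whole genome. Among higher genes with a same-strand neighbour tested, 118 of 562 had a nearest same-strand neighbour that was higher too, against 470 of 4044 other genes (11.6%). For the nearest neighbour on the opposite strand the numbers were 72 of 562 (12.8%) and 455 of 4044 (11.3%). These shares are descriptions, since neighbours can share reads through overlapping models.

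The second pattern was a single filled window. In the 616 higher genes, the fullest window held a median of 42.3% of the gene's precipitate events, against 12.5% over all genes tested. At least 50% of the events stood in 1 window in 235 of the higher genes (38.1%) and in 421 of all 4939 (8.52%). At least 80% stood in 1 window in 84 of the higher genes (13.6%) and in 143 of all genes (2.90%). In 101 of the 235 that window was in an exon and in 134 in an intron. For 72 of the 235 the same window was also the fullest in the inputs.

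Cdk5r2, an intronless gene for a neuronal activator of cyclin-dependent kinase 5, held 604, 237 and 367 CPM in the precipitates and 0, 4.90 and 2.45 in the inputs. Its log2 fold change was 6.85 ± 0.47 (edgeR adjusted p 6.23e-05). A window of exon 1 held 97.1% of its precipitate events, 54, 23 and 24 in precipitates 1 to 3 against 0, 2 and 1 in the inputs. All precipitates were above all inputs, and the events of that window stood on 4 to 8 positions in each precipitate. Pon1, which encodes the serum enzyme paraoxonase, had 93.7% of its events in a window of intron 8, with 59, 72 and 63 events against 0, 5 and 1 (log2 fold change of the gene 5.44 ± 0.26, edgeR adjusted p 3.25e-05). Ska3, which encodes a subunit of the kinetochore-microtubule complex, had 98.5% in intron 6, with 21, 22 and 22 events against 0, 3 and 2 (4.80 ± 0.34, edgeR adjusted p 6.23e-05). In each precipitate these Ska3 events stood on 1 position. Gje1, a gap-junction protein gene, had all of its 41 precipitate events in exon 3 (6.23 ± 0.37, edgeR adjusted p 4.42e-05).

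The call of such a gene rested on its window. Arid4a, which encodes a chromatin protein, had 164, 69 and 56 events in a window of intron 1 against 2, 18 and 28, which is 95.4% of its precipitate events. Its log2 fold change was 3.35 ± 0.35 with that window (edgeR adjusted p 0.000309) and -0.96 without it (edgeR adjusted p 0.165). Of the 616 higher genes, 337 could still be tested without their fullest window, chosen over all 6 libraries, and 82 of them remained higher. When distinct positions were counted in place of events, 172 of the 421 that could be tested remained higher, and 67 remained under both changes. Pes1, which encodes a ribosome biogenesis factor, was called at 5.30 ± 0.51 (edgeR adjusted p 0.000189) from windows divisible by 3 and stood at -0.08 when windows with remainder 1 were counted instead, so its value depended on which windows were counted.

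**Figure D3:**
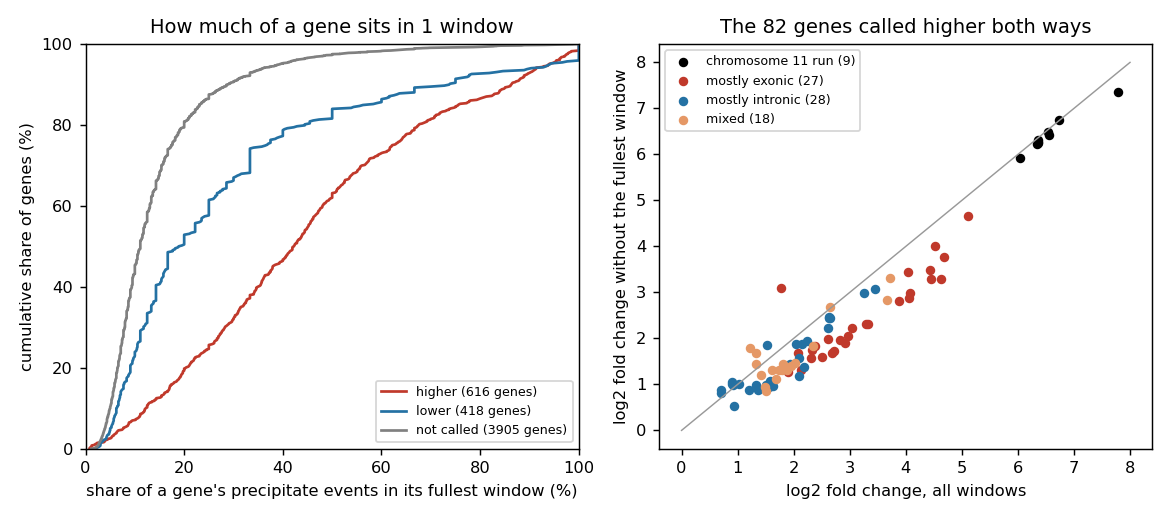
The left panel gives the cumulative share of genes (%) by the share of a gene's precipitate events in its fullest window (%), for higher, lower and uncalled genes, and the curve of the 616 higher genes lies farthest to the right, with a median of 42.3%. The right panel plots the log2 fold change without the fullest window, chosen over all 6 libraries, against that with all windows. It shows the 82 genes called higher both ways, with the line of equality. The 9 genes of the chromosome 11 run lie on or near that line, while the mostly exonic genes, with 1 exception, fall below it.

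The third pattern was found among the 73 genes outside the chromosome 11 run that remained higher without their fullest window. Of these, 27 were mostly exonic (at least 80% of precipitate events in exons), 28 mostly intronic (at most 20%) and 18 between. The 27 are listed as protein-coding apart from Gm21269, a long non-coding RNA, and Gm20441 and Gm37194, for which no type is listed. Gm37194 held events in 3 windows, with 70.8% of them in 1. The median log2 fold change without the fullest window was 2.22 for the exonic and 1.13 for the intronic genes. Over all genes tested, 209 (4.23%) were mostly exonic in the precipitates, and 140 of these were among the 616 higher genes. That overlap is partly built in, since the same precipitate events gave the call and the exonic share. By input events, 54 of the 616 higher, 47 of the 418 lower and 146 of all genes were mostly exonic. In the higher genes the median exonic share was 14.9% in the precipitates and 19.9% in the inputs. Over whole libraries, the exonic share of events was 23.5%, 19.13% and 25.3% in the precipitates and 19.0%, 20.1% and 17.2% in the inputs (difference of the means 3.90 percentage points, two-sided exact permutation p = 0.2, n = 3 per group, where the smallest p possible is 0.1). Precipitate 2 lay within the range of the inputs.

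Among translation factors, Eif3c, which encodes a core subunit of the initiation factor eIF3, held 614, 545 and 1024 CPM in the precipitates and 17.4, 38.2 and 21.04 in the inputs. Its log2 fold change was 4.68 ± 0.36 (edgeR adjusted p 7.72e-05) and 3.76 without the fullest window, which lay in exon 16 and held 47.2% of the events. The lowest precipitate lay far above the highest input. Eif3a, the largest subunit of the same factor, held 551, 422 and 932 CPM against 163, 138 and 94.3 (2.30 ± 0.33, edgeR adjusted p 0.00151), and Eef2, the elongation factor that moves the ribosome along, held 487, 309 and 734 against 40.7, 108 and 50.1 (2.79 ± 0.41, edgeR adjusted p 0.00196). Eif4g3, Eif4g1 and Eif3h were tested and not called. Of 44 listed translation factors 6 were tested, and 3 were higher and none lower, with a median log2 fold change of 1.49 beside 0.00 over all genes tested. Summed over all 44, the level was 3390, 2499 and 4601 CPM in the precipitates and 1388, 2026 and 1347 in the inputs. Without the fullest window 2 of 5 tested were higher, and by distinct positions 3 of 4. For these lists, as for those below, the share of all genes tested that was called is 12.5% higher and 8.46% lower. Members scarce in the inputs, such as Eif3c, could be tested only through the precipitates. The counts and medians of tested members therefore do not describe a list as a whole. None of 79 listed cytosolic ribosomal protein genes had enough events to be tested.

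Other DEAD-box and DEAH-box helicases stood on both sides. Ddx41, which encodes a helicase linked to splicing and to R-loops, held 180, 154 and 535 CPM in the precipitates against 17.4, 9.79 and 12.3 in the inputs (log2 fold change 4.53 ± 0.50, edgeR adjusted p 0.000408, and 4.02 without the fullest window). Precipitate 3 was the highest, and the groups did not overlap. Ddx24, a nucleolar helicase, was higher at 2.99, Dhx16 and Ddx46, which act in the spliceosome, at 1.95 and 1.86. Dhx29, a helicase of translation initiation, and Ddx42, of the spliceosome, were lower at -2.11 and -2.06. In Dhx29 and Ddx42 1 window held 48.9% and 67.7% of the input events. Of 36 listed helicases of these families 7 were tested, 4 higher and 2 lower. Ddx41 and Ddx24 were scarce in the inputs and passed the low-count filter only through the precipitates. Summed over all 36, the level was 1811, 1450 and 2431 CPM in the precipitates and 1353, 1496 and 1196 in the inputs. By distinct positions 2 of 4 tested were higher, without the fullest window 1 of 2, and in both cases 0 were lower. For D1Pas1 itself there were 6, 10 and 5 events in the precipitates and 4, 97 and 101 in the inputs, too few to test. Ddx3x had 0, 0 and 1 events against 1, 29 and 36, and Ddx3y 1, 0 and 2 against 6, 30 and 56. Ddx4, the germ-cell helicase known as mouse vasa homologue, was not called (1.12 ± 0.46, edgeR adjusted p 0.117).

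Of 47 listed splicing factors, the 8 tested had a log2 fold change above 0. Members scarce in the inputs, such as Hnrnpd, passed the low-count filter only through the precipitates. The signs and counts of the 8 are therefore not a result about the list. Hnrnpd, an AU-rich element binding protein, held 286, 185 and 627 CPM against 17.4, 34.8 and 22.1 (log2 fold change 3.67 ± 0.44, edgeR adjusted p 0.000649). It was still higher without its fullest window, at 2.84. Srsf6, Sf3b1 and Hnrnpm were higher at 3.90, 1.92 and 1.73. In Srsf6 a window of exon 2 held 65.9% of the precipitate events. Of 47 listed, 4 were called higher and none lower, with a median of 1.28 over the 8. Summed over all 47, the level was 2288, 1748 and 3271 CPM in the precipitates and 1179, 1668 and 1176 in the inputs. Without the fullest window 1 of 3 tested was higher, and by distinct positions 1 of 2.

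Other genes of the exonic group are given by their levels. Hspa2, the testis-specific HSP70 chaperone of meiotic and haploid cells, held 487, 422 and 657 CPM against 29.0, 89.6 and 56.8 (2.97 ± 0.33, edgeR adjusted p 0.000408). Acsbg2, a testis acyl-CoA synthetase, held 1080, 751 and 1666 CPM against 34.8, 58.8 and 55.8 (4.43 ± 0.33, edgeR adjusted p 7.11e-05), with events in 21 windows. Nabp1, a single-stranded DNA binding protein, held 360, 411 and 902 CPM against 5.81, 19.6 and 13.3 (5.12 ± 0.42, edgeR adjusted p 8.47e-05). In all 3 genes the lowest precipitate was above the highest input, and precipitate 3 was the highest. Nabp1 had the largest log2 fold change of the exonic group without the fullest window, 4.67, and Hspa2 stood at 2.05 and Acsbg2 at 3.49. Tex43, a sperm protein gene, and Bsg, which encodes the membrane protein basigin needed for spermatogenesis, stood at 3.45 and 2.87 without theirs.

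Axoneme genes were called in both directions. Cfap45, a protein inside the tail microtubules, held 657, 504 and 734 CPM against 29.0, 40.6 and 35.8 (4.08 ± 0.23, edgeR adjusted p 3.76e-05, and 2.99 without the fullest window). Cfap65 and Ccdc40, which are needed for sperm tail assembly, were higher at 3.89 and 2.92 and remained so without that window, at 2.80 and 1.89. Cfap52, Dnaic1, Hydin and Dnah2 were higher at 1.43, 1.10, 1.01 and 0.76. In Hydin a window of intron 30 held 31.4% of the precipitate events, with 34, 29 and 12 against 0, 0 and 3. The fullest window of the predicted gene Gm22701, described below, held 33, 27 and 12 against 0, 0 and 3. Whether the 2 genes count the same events was not tested. Dnah1, a dynein heavy chain of the inner arms, was lower, with 31.8, 30.9 and 45.9 CPM against 267, 225 and 165 (-2.58 ± 0.37, edgeR adjusted p 0.00151). Cfap61 was lower at -0.90. Of 47 listed axoneme genes 26 were tested, with 7 higher (beside 12.5% of all genes), 2 lower (beside 8.46%) and a median of 0.37. Without the fullest window 3 of 21 were higher and 1 was lower. Hydin stood at -0.18 when only exon windows were counted, where the median of all genes tested was -0.68.

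Among 9 tested genes of elongating spermatids 4 were higher (beside 12.5% of all genes) and none was lower, with a median of 1.25. Summed over all 47 listed, the level was 2786, 1769 and 3027 CPM in the precipitates and 1330, 2241 and 1220 in the inputs. Without the fullest window 1 of 5 tested was higher. Odf1, of the outer dense fibres, held 466, 350 and 397 CPM against 11.6, 61.2 and 24.9 (3.36 ± 0.41, edgeR adjusted p 0.000682). A window of exon 2 held 76.0% of its precipitate events, and without it the log2 fold change was 1.26 (edgeR adjusted p 0.217). Tnp1, a transition protein that replaces histones, held 339, 165 and 336 against 92.9, 86.7 and 54.7 (1.91 ± 0.33, edgeR adjusted p 0.00462). Spata18 and Akap4 were higher at 2.39 and 2.10. Of 13 tested pachytene genes Hspa2 and Ldhc were higher, the latter at 1.82, a share near that of all genes. Of 13 tested germ-cell RNA-binding proteins Ythdc1, Celf1 and Samd4 were higher, at 1.54, 1.12 and 0.60. None of this list was higher by distinct positions (9 tested) or without the fullest window (8 tested) in edgeR's test. Samd4 did not keep its direction, with -0.64 from windows of remainder 1 (edgeR adjusted p 0.0457) and -0.17 without its fullest window.

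In the piRNA pathway, which makes the small RNAs that silence transposons in germ cells, 11 of 34 listed genes were tested. Tdrd7, which encodes a tudor-domain protein found in the chromatoid body, was the only one called, with 212, 216 and 229 CPM against 75.5, 71.5 and 68.7 (1.62 ± 0.20, edgeR adjusted p 0.000662). In a window of exon 4 there were 8, 13 and 7 events in the precipitates and 0, 1 and 0 in the inputs. They stood on 1, 2 and 2 positions in the precipitates and made up 50% of the gene's precipitate events. Tdrd7 was not called by distinct positions (0.54, edgeR adjusted p 0.316) or without that window (0.55, edgeR adjusted p 0.325). The median of the list was -0.20. Of 105 gene features that carry the name of a genic piRNA cluster, 29 were tested, and Hmbox1, Nsd1, Rad54l2 and Zfp346 were higher, at 1.52, 1.22, 2.16 and 2.33. Ppp1r12b was lower at -0.97. The share of higher genes was thus near the 12.5% of all genes. The median of the 29 was -0.03. Nsd1 stood at -0.14 when only exon windows were counted, where the median of all genes tested was -0.68. Among synapsis and recombination genes, Ccnb1ip1 and Stag3 were higher (2.09 and 0.94) and Majin was lower (-3.08). Ccnb1ip1 and Rpph1, the RNA of RNase P described below, lie within 18.5 kb on chromosome 14. The fullest window of Ccnb1ip1, in exon 1, held 20, 13 and 17 events against 3, 33 and 33, which is 40.3% of its precipitate events. Bases 201 to 250 of Rpph1 held 24, 15 and 26 against 2, 40 and 33. Whether the 2 genes count the same events was not tested. Without the fullest window 0 of 4 tested genes of that list were higher in edgeR's test, and by distinct positions 1 of 5. Stag3 had 86.4% of its precipitate events in a window of exon 1. Over exon windows alone it stood at -0.29, where the median of all genes tested was -0.68.

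Few genes of other cell types could be tested. Of the genes tested, 5 were of Sertoli, 3 of Leydig, 7 of peritubular, 4 of macrophage and 4 of endothelial lists. Of these, 0 were higher by edgeR's adjusted p and also by DESeq2, beside 12.5% of all genes. That share would give 0 or 1 gene in each list alone and more over the lists together. At an unadjusted p under 0.05, edgeR gave 2 higher genes, both of the Sertoli list, while 2 peritubular and 2 macrophage genes were lower. The only one called lower was Pdgfrb of the peritubular list, at -2.24. The median log2 fold changes of these 5 lists ran from -0.66 to 0.32. None of the replication-dependent histone or snoRNA host genes listed had enough events for a test. The 6 tested genes of the sex-linked list, the 3 of meiotic division and 1 of the DDX3 relatives gave no call in edgeR's test, although 1 sex-linked gene and Ddx4 were higher at an unadjusted p under 0.05. Kit, a receptor of spermatogonia that Leydig cells also express, was higher at 1.58 ± 0.21 (edgeR adjusted p 0.00101). It was the only one called of 9 tested spermatogonial genes, a share near that of all genes, and the median of that list was 0.01.

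**Figure D4:**
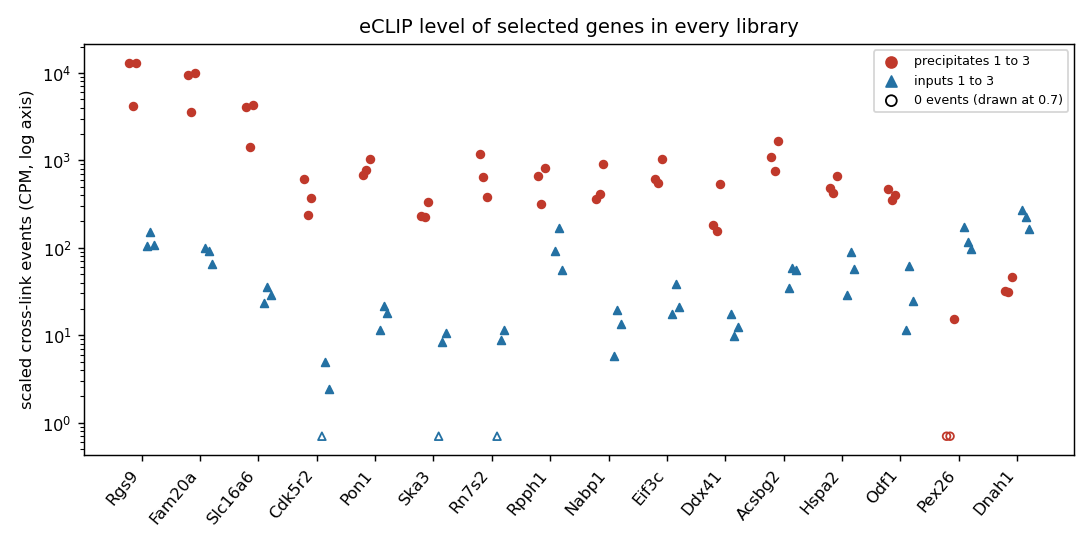
Scaled cross-link events (CPM, log axis) are shown for selected genes in each of the 3 precipitates (circles) and 3 inputs (triangles), with open symbols for 0 events. For all genes to the left of Pex26 the precipitates stand above the inputs without overlap, and for Pex26 and Dnah1 below them.

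Structural RNAs were called in both directions. The RNA of the signal recognition particle, 7SL, which guides secretory proteins to the endoplasmic reticulum, has the features Rn7s1 and Rn7s2. These are near-identical copies, so the division of reads between them is uncertain. Rn7s2 held 1176, 638 and 382 CPM against 0, 8.81 and 11.6 (log2 fold change 6.25 ± 0.51, edgeR adjusted p 8.47e-05), and Rn7s1 held 254, 165 and 122 against 5.81, 4.41 and 4.91 (5.25 ± 0.36, edgeR adjusted p 6.23e-05). In both, precipitate 1 was the highest and precipitate 3 the lowest, and all were above the inputs. When all overlapping windows were read, the events of Rn7s2 filled 3 windows that share bases 141 to 150 of its 300, with 118, 66 and 26 events in the middle window against 0, 4 and 12. Those of Rn7s1 filled 2 windows, and bases 151 to 160 lie in these alone, with 143, 87 and 28 events in the first of them against 0, 1 and 5. Bases are counted along the chromosome. Counted from the other end, the stretch of Rn7s1 is bases 141 to 150. Bases 151 to 160 of Rn7s1 lie in no window whose number is divisible by 3, so the 254, 165 and 122 CPM above, from 24, 16 and 8 events, leave out most of the events of Rn7s1 in the precipitates.

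The RNA subunits of 2 related ribonucleases were higher as well. Rpph1, the RNA of RNase P, which trims transfer RNA precursors, held 657, 319 and 810 CPM against 92.9, 170 and 55.4 (2.44 ± 0.47, edgeR adjusted p 0.00763). Its fullest counted window, bases 221 to 270, held 22, 15 and 28 events against 0, 29 and 22. Rmrp, the RNA of RNase MRP, has 2 overlapping features that count largely the same events. The first held 752, 422 and 963 CPM against 261, 312 and 139 (1.58 ± 0.37, edgeR adjusted p 0.0185). The nuclear RNA Neat1, the scaffold of paraspeckles, was higher at 2.57 ± 0.45 (edgeR adjusted p 0.00479), although 66.7% of its events stood in 1 window on 1 or 2 positions per precipitate. Lower were Rn7sk, the RNA that holds back the elongation factor P-TEFb, at -1.98 ± 0.57 (edgeR adjusted p 0.0389), and Gm24265, listed as a small nuclear RNA, at -3.14. Of the features named for 5S ribosomal RNA, n-R5s194 was lower at -2.27 ± 0.67 (edgeR adjusted p 0.0414) and n-R5s56 was higher at 2.96 ± 0.30 (edgeR adjusted p 0.000269), and reads of such near-identical copies cannot be assigned with certainty. In the list of 20 nuclear and structural non-coding RNAs, 9 features were tested, with 6 higher and 1 lower. The 6 include both features of Rmrp and both copies of 7SL, so they are not 6 separate RNAs. By distinct positions 5 of 7 were higher, and without the fullest window 0 of 4 in edgeR's test.

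Mir6236 was the only microRNA gene tested. Its mature sequence is given because most events of the gene lay outside it. The capitals mark the seed, bases 2 to 8, and the RefSeq position is chr9:110281353-110281371 on the plus strand of GRCm38.p6.
mmu-miR-6236: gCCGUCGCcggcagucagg

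Mir6236 held 657, 309 and 550.3 CPM in the precipitates against 221, 158 and 163 in the inputs (1.52 ± 0.28, edgeR adjusted p 0.0068), counted in the only window whose number is divisible by 3. The groups did not overlap. The mature sequence covers bases 67 to 85 of the 123 bases of the gene. The fullest window was the first, bases 1 to 50, with 255, 131 and 83 events against 127, 1227 and 1254, and the window of bases 61 to 110 held 19, 11 and 15 against 10, 102 and 166. Bases 21 to 40 lie in the first and second windows alone, which held the most events, and they come before the mature sequence.

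Predicted genes with almost no input events had large ratios. Gm47294 held 37, 26 and 15 events in the precipitates and 0, 0 and 2 in the inputs, a ratio of 769 with a 95% counting interval of 206 to 6459. Gm22701 held 33, 27 and 12 against 0, 0 and 4, a ratio of 355 (133 to 1337). In both, all counted precipitate events stood in 1 window, and the intervals cover counting error only. The feature with the highest level in the precipitates, the clone-named CT010467.1, held 5141, 2877 and 4037 events and was not called (1.18 ± 0.51, edgeR adjusted p 0.135).

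Genes lower in the precipitates often had 1 filled window in the inputs. The fullest input window held at least 50% of a gene's input events in 216 of the 418 lower genes (51.7%), against 512 of all 4939 (10.4%). In the lower genes there were 3.34, 3.47 and 2.95 events per position in inputs 1 to 3 against 1.09, 1.10 and 1.07 in the precipitates. Pex26, a peroxisome assembly gene, held 0, 0 and 15.3 CPM in the precipitates and 174, 116 and 97.5 in the inputs (-4.86 ± 0.83, edgeR adjusted p 0.0042). Of its input events 72.1% stood in a window of exon 3, with 22, 187 and 184 events on 5, 19 and 18 positions. Dnajb12, Mtrr and Fcgr1 had the same form, at -3.67, -3.78 and -4.65. Try4 and Magea2 fell by 4.33 and 4.18 on the log2 scale, and they belong to gene families whose copies may share reads.

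The falls also depended on how events were counted. Without the fullest window 32 of the 175 lower genes that could be tested remained lower, and 25 of these were mostly intronic in the inputs. By distinct positions 18 of 176 remained lower. Dnah1 was among those that remained without its fullest window, at -1.97, although that window, in exon 18, held 42.0% of its input events. Majin, with 87.7% of its input events in a window of exon 11, held 53.0, 41.1 and 61.1 CPM against 819, 343 and 199. Input 1 was the highest in Pex26, Dnah1 and Majin, and the groups did not overlap in any of them.

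The last comparison asked how the transcripts of the eCLIP genes stood in testes that lack D1PAS1. D1Pas1 itself was read first as a check of the labels. At P28 its level was 356, 241 and 167 CPM in the WT libraries and 30.8, 40.0 and 43.2 in the KO libraries (log2 fold change -2.74 ± 0.31, edgeR adjusted p 0.000181). At P18 it fell by 2.14 on the log2 scale (edgeR adjusted p 0.000974), and at P14 it was 32.0 to 45.4 CPM in WT and 13.6 to 16.8 in KO (-1.28 ± 0.14, edgeR adjusted p 0.0860). The groups did not overlap at any age, and reads of the gene remained in all KO libraries. In whole testis, fewer cells of a type and less RNA per cell cannot be told apart.

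At P14, none of the 475 genes tested of the 616 higher in the eCLIP was called in the KO, beside 0% of all genes in either direction. At an unadjusted p under 0.05 edgeR gave 14 higher and 11 lower, and DESeq2 called 1 lower. At P18, 15 of 476 were higher in the KO (beside 3.19% of all genes) and 100 were lower (beside 15% of all genes). At P28, 106 of 508 were higher (20.9%, beside 24.6%) and 203 lower (40.0%, beside 31.6%). For genes lower in the eCLIP the shares at P28 were 24.2% higher and 29.8% lower. The difference between these shares was not tested.

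Of the 27 exonic genes that remained higher without their fullest window, 25 were tested at P28. Of these, 19 were lower in the KO and 0 were higher (0 also at an unadjusted p under 0.05), with a median log2 fold change of -1.33 beside 0.05 over all genes tested. At P18, 12 of 21 were lower, and Nabp1 was higher at 0.40 (edgeR adjusted p 0.0269). At P14, edgeR called 0 of 19, with 2 lower at an unadjusted p under 0.05, and DESeq2 called 1 lower. The 25 genes were abundant in WT testis at P28, with a median of 274 CPM against 16.9 CPM over all genes tested, and the part of abundance in these counts was not tested.

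Genes named above were among them. Spata18 was at 764 ± 402 CPM (SD, n = 3) in WT and 6.41 ± 0.99 in KO at P28 (-6.90 ± 0.48, edgeR adjusted p 2.06e-05), and Acsbg2 at 58.2 ± 26.1 and 0.0908 ± 0.1196 (-9.16 ± 0.70). Cfap65 fell from 289 ± 43.3 to 57.7 ± 3.23 CPM (-2.32 ± 0.19) and Hspa2 from 1401 ± 478 to 555 ± 54.1 (-1.33 ± 0.27, edgeR adjusted p 0.00421). Eif3c fell by 1.12 (edgeR adjusted p 0.00267), while Eif3a (-0.12, edgeR adjusted p 0.673), Ddx41 (-0.10, edgeR adjusted p 0.607) and Psip1 (-0.25, edgeR adjusted p 0.529) were not called.

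**Figure D5:**
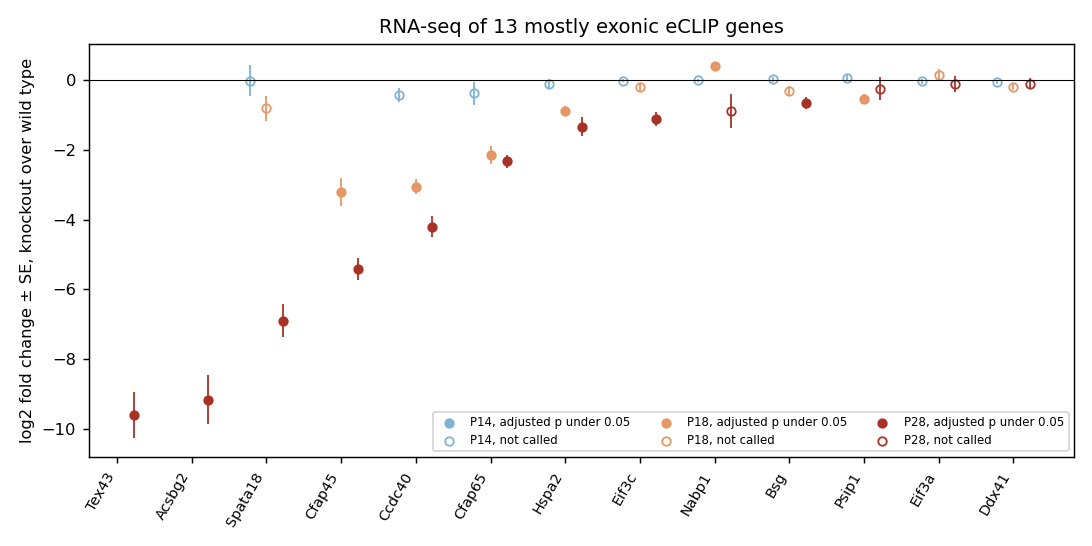
Log2 fold change ± SE of KO over WT in the RNA-seq is given for the 13 protein-coding exonic genes named in the text and tested at P28. Values are for P14, P18 and P28, sorted by the value at P28, with filled symbols for an adjusted p under 0.05. At P14 the 10 symbols drawn are open, and at P28 9 of 13 are filled and below 0.

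The 9 genes of the chromosome 11 run did not move together in the RNA-seq. 1700012B07Rik was at 267, 207 and 163 CPM in the WT libraries at P28 and at 3.32, 2.47 and 2.56 in the KO libraries (-6.25 ± 0.29), and Fam20a fell from 27.2 ± 2.35 to 1.68 ± 0.47 CPM (-4.01 ± 0.27). Abca8b was higher in the KO, at 7.07 ± 2.25 against 2.45 ± 0.85 CPM (1.52 ± 0.38, edgeR adjusted p 0.0104). Rgs9, which held the most events of the run in the eCLIP, was at 3.18 ± 0.56 and 3.32 ± 0.48 CPM (0.05 ± 0.30, edgeR adjusted p 0.891). Slc16a6 was lower at P18 (-0.73 ± 0.16, edgeR adjusted p 0.0131) and was not called at P28 (-0.31, edgeR adjusted p 0.555). At P14 no gene of the run was called, and the WT levels of those listed ranged from 0.0513 CPM in E030025P04Rik to 16.1 CPM in Wipi1. Gm11696 was lower at P28 (-1.44 ± 0.42, edgeR adjusted p 0.0207), and Wipi1 was not called (-0.74 ± 0.28, edgeR adjusted p 0.0533).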

How the data were processed

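Per the file headers, the authors deposited a count of cross-link events and of distinct cross-linked positions for each window of exons and introns with at least 1 event. The submitters' processing notes name cutadapt 3.4, HTSeq and build mm10. No source used here gives the aligner, the annotation release or whether duplicates were removed. The RNA-seq tables hold estimated counts per gene, as deposited, which were rounded to whole numbers. Their KO and WT columns were matched to groups by name.

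Windows of up to 50 nt start every 20 nt, so windows with a number divisible by 3 count an event once but leave 10 nt in every 60 uncounted. Events were summed per gene, filtered with filterByExpr and tested with edgeR 4.0.16 (R 4.3.3), using TMM scaling, the quasi-likelihood test and Benjamini-Hochberg adjustment at 0.05 over all features, piRNA clusters included. CPM was taken over the features tested. SE is the absolute log2 fold change divided by the root of F. DESeq2 1.42.0 served as an alternative. In data simulated from the means and depths of these libraries 4886 features were tested. Of features raised by a log2 change of 2, 100% were called, and of those raised by 1, 41.3%. Of those lowered by 2, 94.1% were called, of those lowered by 1, 22.2%, and of unchanged ones 0.1%. Each changed setting held 34 to 58 features. All features shared a common dispersion, and events did not pile up in windows as in the real data. These shares therefore do not give the error or power of the real calls. Depth sets the precision: the genes tested had a median of 32 events over the 3 precipitates and 584 over the 3 inputs.

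The members, gene lists and named genes were chosen with earlier results of these data known. Named by rule were D1Pas1, Ddx3x and Ddx3y, the 15 largest rises with at least 10 events in every precipitate, the 10 largest falls with at least 10 in every input, predicted models apart from the first 3 in each direction, the 10 most abundant features and up to 4 members of each of 26 lists by p-value. The genes of the chromosome 11 and 18 intervals, the genes kept without their fullest window, Arid4a and Pes1 were singled out after their values were seen, and not all genes the rule names are described. Strand was read from the order of exon and intron numbers against window numbers, and it matched the RefSeq table for 12884 of 12887 genes. Coordinates and sequences are from RefSeq GRCm38.p6. Small RNA libraries were not used here.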

Additional observations from a re-analysis of the deposited data

How the results depend on the processing

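The number of genes higher in the precipitates (616) and lower (418) was 951 and 1727 without a low-count filter, 152 and 198 over exon windows only (404 genes tested), 922 and 500 with DESeq2, and 503 and 721 with library totals in place of TMM. With library totals 41.1% of calls were higher, against 59.6%, and the median of all genes moved from 0.00 to -0.15 (0.38 with DESeq2, -0.81 without the filter, -0.68 over exon windows). The next 3 alternatives were chosen after seeing the data: distinct positions gave 183 and 24, leaving out each gene's fullest window gave 107 and 46, and thinning every library to the smallest total gave 0 and 0 (147 and 103 at an unadjusted p under 0.05, edgeR). Leaving out 1 library gave 464 to 609 higher and 132 to 584 lower genes. Of the 616 higher genes, 368, 415 and 412 were kept without precipitate 1, 2 or 3, and 426 with DESeq2. With the replicate block 552 were higher and 493 lower, and 530 and 368 of the original calls were kept. The labels do not say that libraries of the same number share a lysate, so the numbers were not taken to pair them. Deviations from the group mean in libraries of the same number gave r = 0.024, -0.169 and -0.033. With 3 libraries per group and few precipitate events per gene, these values cannot show whether the libraries are paired. No paired analysis was possible because the columns of the RNA-seq tables share no replicate numbers between genotypes.

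Of the named genes, these changed sign: with windows of remainder 1, Pes1 (-0.075) and Samd4 (-0.64); by distinct positions, Samd4 (-0.13); without the fullest window, Samd4 (-0.17), Arid4a (-0.96) and Gm16090 (-2.69); over exon windows only, Stag3 (-0.29), Hydin (-0.18) and Nsd1 (-0.14). Over exon windows only, the median of all genes tested was -0.68, which is below the values of Stag3, Hydin and Nsd1. The causes of the sign changes were not tested.

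In the RNA-seq, DESeq2 called 1 gene lower at P14 among those higher in the eCLIP, and 1 among the exonic ones. At P18 the number higher in the KO (15) was 30 with DESeq2 and 50 with library totals, and 3 to 35 with 1 library left out, while that of the exonic genes was 0 to 1. At P28 the number higher (106) was 194 with library totals and 63 to 112 with 1 library left out, and 1 exonic gene was higher with library totals. The genes tested had a median of 32 events over the precipitates. Thinning mainly cut the inputs, so the part of precipitate depth in the number of calls was not tested.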
